A study of Mus musculus with 12 samples.

Results

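Fibroblast and extracellular matrix genes were followed in RNA from epithelium that had been cut by laser microdissection out of sections of mouse intestinal tumors. The set comprised 38 genes chosen by name: collagens, other matrix proteins, enzymes that remodel the matrix, and surface or cytoskeletal markers of fibroblasts. Each gene was read from the probe set that mapped to its symbol alone, and where several did, from the one with the highest mean over 12 arrays. Of the 38 genes, 37 were measured, each by 1 probe set, among 19938 genes in all; Fbn1 is not analysed here. Values are deposited log2 values. Levels of different genes come from different probes and cannot be ranked as amounts of RNA.

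All mice were males on a C57BL6/J APCmin/+ background, and intestines were taken at 25 weeks. APCmin/+ mice carry 1 defective copy of Apc and form adenomas of the intestine. FSPCre, which the labels do not spell out, is the usual name for Cre under the promoter of fibroblast-specific protein, the product of S100a4. FSPCre-PPARB -/- mice, called KO below, were compared with PPARB flox/flox littermates, called floxed below; both names stand for the labels of the arrays. There were 3 KO tumor arrays, 3 floxed tumor arrays, 2 KO adjacent arrays and 2 floxed adjacent arrays, where adjacent means epithelium beside the tumor. A further 2 adjacent arrays had contradictory genotype labels and were kept out of every comparison but that of the tissues across 12 arrays. Of these, conflict array 1 had a KO title beside a floxed genotype entry, and conflict array 2 had a floxed title beside a KO genotype entry. The tissue cut out was epithelium, whereas this promoter is used for fibroblasts. RNA of stromal cells cut out along with the epithelium and low expression in the epithelium itself cannot be told apart in bulk RNA, nor can fewer cells of a type and less RNA per cell. Which mouse each array came from is not labelled, so replicates may share an animal; p-values may then be too small and measure only technical spread.

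Fibroblasts build the connective tissue under the intestinal epithelium. They secrete fibrillar collagens, which form the tension-bearing fibers, and proteoglycans and matricellular proteins, which set the spacing of those fibers and how cells hold on to them. Collagen IV, laminins and nidogen form the basement membrane, the sheet on which epithelial cells sit, and are made by both stroma and other cell types. Platelet-derived growth factor receptors, Thy1 and vimentin mark fibroblasts and related cells, and S100a4 is also made by macrophages and other leukocytes.

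In the usual meaning of FSPCre the promoter of S100a4 drives the Cre, so the sequence just before its annotated start is shown, beside those of Col3a1, which passed the test between genotype labels in tumor, and Sparc, which passed it in adjacent epithelium. The last 2 were chosen after their values were seen. The windows hold the 250 bases before the start, from RefSeq on build GRCm38.p6, 5′ to 3′ on the strand of the gene: chr3:90603520-90603769 on the plus strand for S100a4, chr1:45311288-45311537 on the plus strand for Col3a1 and chr11:55420081-55420330 on the minus strand for Sparc. Capitals mark matches on either strand to any of 4 motifs. These were the TATA box, spelled TATAAA, the NF-Y box, spelled CCAAT, the AP-1 site, spelled TGANTCA, and the site of TEAD factors, spelled GGAATG. Matches did not overlap in these windows.
S100a4: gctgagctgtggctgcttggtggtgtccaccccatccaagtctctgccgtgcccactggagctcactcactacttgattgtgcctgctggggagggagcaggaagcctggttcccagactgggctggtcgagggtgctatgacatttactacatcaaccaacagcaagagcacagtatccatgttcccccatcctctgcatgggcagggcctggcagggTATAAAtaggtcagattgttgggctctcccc
Col3a1: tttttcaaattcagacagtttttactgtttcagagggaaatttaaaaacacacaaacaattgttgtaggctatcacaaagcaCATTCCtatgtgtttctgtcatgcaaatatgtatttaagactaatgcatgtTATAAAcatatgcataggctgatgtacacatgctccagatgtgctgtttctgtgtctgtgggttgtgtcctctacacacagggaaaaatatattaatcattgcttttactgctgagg
Sparc: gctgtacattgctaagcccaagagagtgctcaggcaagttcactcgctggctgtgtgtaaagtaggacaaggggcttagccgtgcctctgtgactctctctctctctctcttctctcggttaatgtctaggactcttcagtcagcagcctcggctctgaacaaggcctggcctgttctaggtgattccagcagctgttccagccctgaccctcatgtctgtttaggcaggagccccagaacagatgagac
The S100a4 window held TATAAA at positions -31 to -26 from the start. The Col3a1 window held TATAAA at -117 to -112 and, on the other strand, GGAATG at -168 to -163, printed there as its complement. No match was found in these letters of the Sparc window. Of all 32851 promoter windows in the table, 12.4% held the letters of the TATA box, 33.9% of the NF-Y box, 6.75% of the AP-1 site and 12.6% of the TEAD site. Windows were listed for 25 of the member genes, 31 windows in all. The letters of the TATA box were in 7, of the NF-Y box in 10, of the AP-1 site in 1 and of the TEAD site in 4. These are matches of letters anywhere in the window, and whether they work as sites was not tested.

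The arrays differed in signal, and this went with the labels. Both floxed adjacent arrays and floxed tumor arrays 1 and 2 had a median correlation with the other arrays under 0.7 and are called weak-signal arrays here; the SD of log2 values within an array was 1.04 to 1.09 in these 4 and 1.49 to 1.57 in the other 8. Ppard, which encodes the deleted receptor, measured 6.06, 6.07 and 6.50 in KO tumor arrays 1 to 3 and 4.95, 4.48 and 5.79 in floxed tumor arrays 1 to 3, with 5.76 and 5.51 in KO adjacent and 5.09 and 4.61 in floxed adjacent arrays. KO minus floxed was 1.14 ± 0.33 in tumor (log2, SE, limma adjusted p = 0.0991) and 0.78 ± 0.41 in adjacent epithelium (adjusted p = 0.230). The probes were not placed against the deleted exons and the tissue was epithelium, so these values do not check the labels. Every one of 16 epithelial markers, among them Epcam and Vil1, lay above the background level defined below in the 8 other arrays, against 5 to 14 in the weak-signal arrays.

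A background level was set in each array as the 95th percentile of 1194 olfactory and vomeronasal receptor genes, which serve smell and are little used in the gut. Between 23 and 29 of the 37 genes lay above it in the 8 arrays without weak signal, where 52.9% to 58.3% of all genes did. In the 4 weak-signal arrays 7 to 10 did, with 10.2% to 18.8% of all genes. In all 8 arrays without weak signal 21 genes lay above it, 10 in some and 6 in none, while 40.1% of all genes lay above it in all 8 and 31.4% in none. At the 99th percentile 4 genes stayed above in all 8: Col1a1, Col4a2, Col6a1 and Col6a2.

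**Figure D1:**
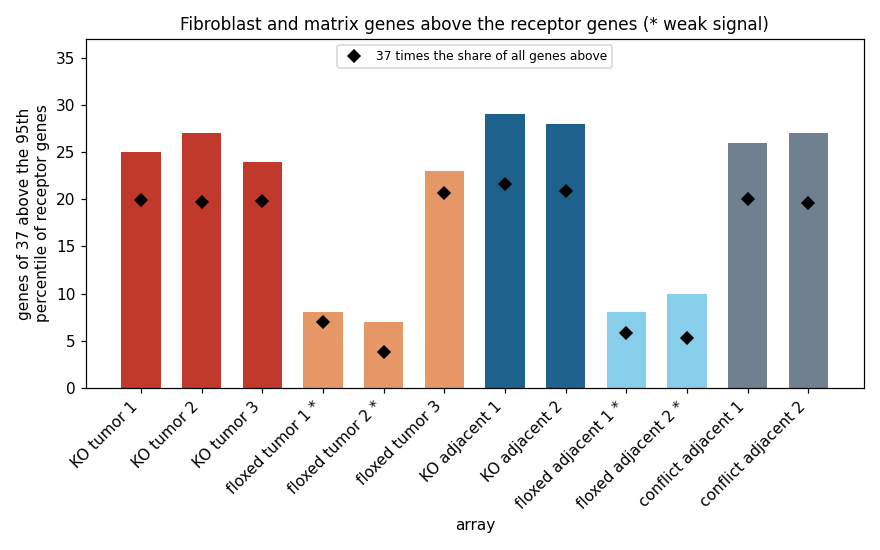
Number of the 37 genes above the 95th percentile of receptor genes in each of 12 arrays (bars), with diamonds at 37 times the share of all genes above it. Bars stand at 23 to 29 in the arrays without weak signal and at 7 to 10 in the 4 weak-signal arrays, marked with asterisks, and all lie above their diamonds.

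The 6 genes at or under background in all 8 were Lum and Dpt, small matrix proteins that bind collagen fibrils, Fap, a serine protease of activated fibroblasts, the metalloproteinase inhibitors Timp1 and Timp3, and Mfap5, a microfibril protein. S100a4 lay above background in 3 of 12 arrays, KO adjacent array 1, floxed adjacent array 1 and conflict array 2. Vim, the intermediate filament protein of mesenchymal cells, lay above it in 6 and Postn, periostin, in 1. Defining fibroblast markers were thus split, with Col1a1 above background in 12 arrays, Col3a1, Dcn and Pdgfrb in 8, and Fap and Lum in 0.

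**Figure D2:**
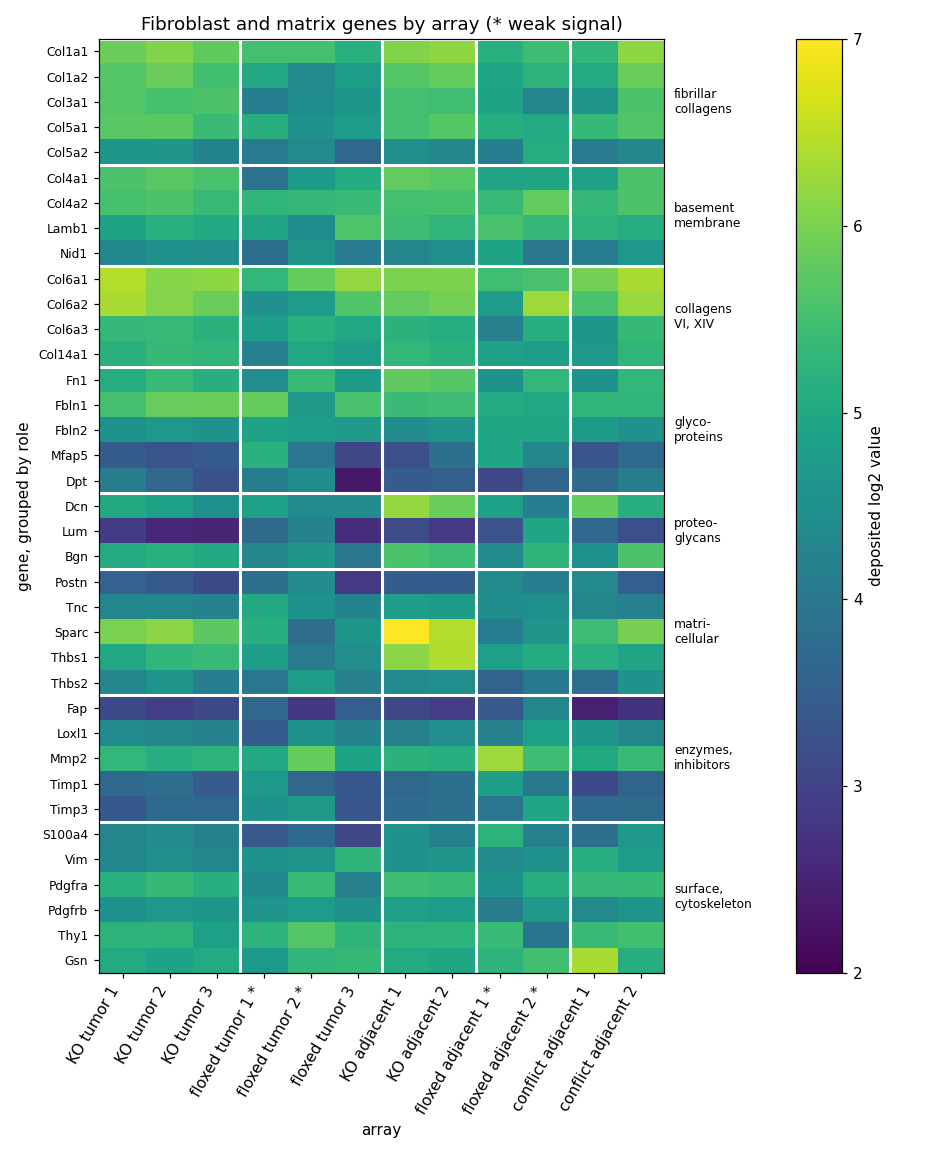
Deposited log2 values of the 37 genes (down, grouped by role) in the 12 arrays (across, weak-signal arrays with asterisks), on a color scale from 2 to 7. Rows are read across arrays, not against each other: the KO arrays resemble each other, and Sparc is brightest in KO adjacent array 1 at 7.00.

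Over the 37 genes, each KO array correlated with the mean of the other KO arrays at r = 0.947 to 0.981. Floxed tumor array 3 did so at 0.815, conflict arrays 1 and 2 at 0.806 and 0.964, and the weak-signal arrays at 0.503 to 0.564. These correlations run across genes measured by the same probes and carry no test. The median SD of a gene within its group was 0.14 in KO tumor and 0.41 in floxed tumor, and 0.08 in KO adjacent and 0.42 in floxed adjacent epithelium. Over all genes it was 0.16 and 0.50, and 0.11 and 0.32.

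In KO tumor epithelium against floxed tumor epithelium, 1 of the 37 genes passed the test (limma, Benjamini-Hochberg adjusted p under 0.05 over 19938 genes): Col3a1, the chain of type III collagen, was higher by 1.21 ± 0.24 (log2, SE, n = 3 and 3, adjusted p = 0.0478). Its values in the weak-signal floxed tumor arrays 1 and 2, 4.15 and 4.43, lay under the background of those arrays, 5.10 and 5.33 (the 95th percentile of receptor genes), so the size of the difference is uncertain. None was lower. Over all genes 0.682% were called higher and 0.396% lower, so 1 of 37 rests on a single gene. The median difference of the 37 genes was 0.25, with 24 of them above 0, against -0.01 and 49.6% over all genes. The 3 KO arrays lay above all 3 floxed arrays in 12 genes and below them in 2, while 13.2% and 13.9% of all genes did not overlap in these directions.

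With the replicate number of the titles as a block, which links same-numbered tumor arrays, none of the 37 genes passed (0 calls in limma, with 10 at an unadjusted p below 0.05); over all genes 0.226% were higher and 0.0401% lower. Col3a1 then had an adjusted p of 0.0972. Over the alternatives tried, its difference was 0.99 to 1.32 and its adjusted p 0.0037 to 0.221, and it passed in 5 of 17.

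All 5 fibrillar collagen chains lay above 0, with a median of 0.80, and 1 of them passed. Col3a1 measured 5.66, 5.55 and 5.60 in KO tumor arrays 1 to 3, against 4.15, 4.43 and 4.62 in floxed tumor arrays 1 to 3. The groups stood apart by more than the spread within either, and floxed tumor array 3, which had ordinary signal, lay nearest to the KO arrays. Col1a2, a chain of type I collagen, measured 5.68, 5.86 and 5.48 in KO tumor arrays and 5.01, 4.40 and 4.79 in floxed tumor arrays, a difference of 0.94 that did not pass (adjusted p = 0.0800). Col1a1, the other chain of type I collagen, measured 5.87, 6.05 and 5.77 in KO tumor arrays and 5.50, 5.51 and 5.16 in floxed tumor arrays. The groups did not overlap, and the difference of 0.50 ± 0.22 did not pass (adjusted p = 0.206). Col5a1 and Col5a2, chains of the type V collagen that starts fibril growth, differed by 0.80 and 0.47, neither past the test. Col1a2 and Col5a2 lay under background in floxed tumor arrays 1 and 2, and Col5a1 in floxed tumor array 2. The sizes of these differences are therefore uncertain.

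All 4 basement membrane genes lay above 0 and none passed. Col4a1 measured 5.59, 5.73 and 5.57 in KO tumor arrays and 3.90, 4.73 and 5.08 in floxed tumor arrays, with a difference of 1.06 ± 0.29 (adjusted p = 0.0896). Col4a2, whose chain joins that of Col4a1 in one triple helix, measured 5.55, 5.60 and 5.37 in KO tumor arrays and 5.28, 5.33 and 5.38 in floxed tumor arrays, with a difference of 0.17 ± 0.22 (adjusted p = 0.659). The KO and floxed arrays overlapped for Col4a2 and not for Col4a1. The Col4a1 values of floxed tumor arrays 1 and 2 lay under the background of those arrays, 5.10 and 5.33. The size of its difference is therefore uncertain, while Col4a2 lay above background in all 12 arrays. Whether the differences of these genes were unlike each other was not tested. In RefSeq these genes start 21 bases apart on opposite strands of chromosome 8, and they are known to share a bidirectional promoter. The laminin chain gene Lamb1 and the linker Nid1 differed by 0.03 and 0.30.

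Collagen VI forms beaded filaments around cells, and its chains Col6a1, Col6a2 and Col6a3 differed by 0.46, 1.13 and 0.32. Col6a2 measured 6.37, 6.08 and 5.88 in KO tumor arrays and 4.54, 4.76 and 5.65 in floxed tumor arrays; floxed tumor array 3 again lay nearest to the KO arrays (adjusted p = 0.141). Col14a1, a collagen on the surface of fibrils, differed by 0.60. Col6a2, Col6a3 and Col14a1 lay under background in floxed tumor arrays 1 and 2, so the size of their differences is uncertain. Fibronectin, Fn1, and the fibulins Fbln1 and Fbln2 differed by 0.36, 0.37 and -0.20. Fbln2 lay under background in both of these floxed arrays, Fn1 in floxed tumor array 1 and Fbln1 in floxed tumor array 2. None of these collagen, fibronectin and fibulin differences passed.

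Among matricellular genes, Sparc, which encodes a collagen-binding protein of remodeling tissue, measured 5.99, 6.12 and 5.74 in KO tumor arrays and 5.15, 3.78 and 4.63 in floxed tumor arrays. Its difference of 1.43 ± 0.35 was the largest of the 37 in this comparison and did not pass (adjusted p = 0.0732). Thbs1, thrombospondin 1, which binds and activates latent TGF-beta, measured 4.99, 5.29 and 5.37 in KO tumor arrays and 4.81, 4.08 and 4.47 in floxed tumor arrays (difference 0.76, adjusted p = 0.128). For both genes every KO array lay above every floxed array. The values of Thbs1 in floxed tumor arrays 1 and 2, and of Sparc in floxed tumor array 2, lay under the background of those arrays. The size of both differences is therefore uncertain. Thbs2, Postn and Tnc differed by 0.02, -0.33 and -0.34. Of the proteoglycans, Bgn, biglycan, differed by 0.79 and Dcn, decorin, by 0.25, neither past the test.

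S100a4, whose promoter FSPCre usually denotes, measured 4.28, 4.41 and 4.21 in KO tumor arrays and 3.40, 3.70 and 3.07 in floxed tumor arrays. The groups did not overlap and the difference was 0.90 ± 0.30 (adjusted p = 0.125), but all 6 values lay at or under the background level of their arrays. Vim measured 4.30, 4.49 and 4.29 in KO tumor arrays and 4.54, 4.59 and 5.25 in floxed tumor arrays, so that here every KO array lay below every floxed array (difference -0.43 ± 0.25, adjusted p = 0.317). Vim lay under background in KO tumor arrays 1 and 3 and in floxed tumor arrays 1 and 2, so the size of its difference is uncertain. The receptor genes Pdgfra and Pdgfrb differed by 0.60 and -0.03, Thy1 by -0.27 and Gsn, the actin-severing gelsolin, by -0.10. Of the genes at or under background, Lum measured 2.88, 2.58 and 2.53 in KO tumor and 3.74, 4.24 and 2.65 in floxed tumor arrays, and Timp3 measured 3.37, 3.72 and 3.69 in KO tumor and 4.56, 4.68 and 3.35 in floxed tumor arrays. In both genes the weak-signal floxed arrays were high and floxed tumor array 3 lay near the KO arrays. The gelatinase Mmp2 differed by -0.03 and the collagen cross-linking enzyme Loxl1 by 0.24.

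**Figure D3:**
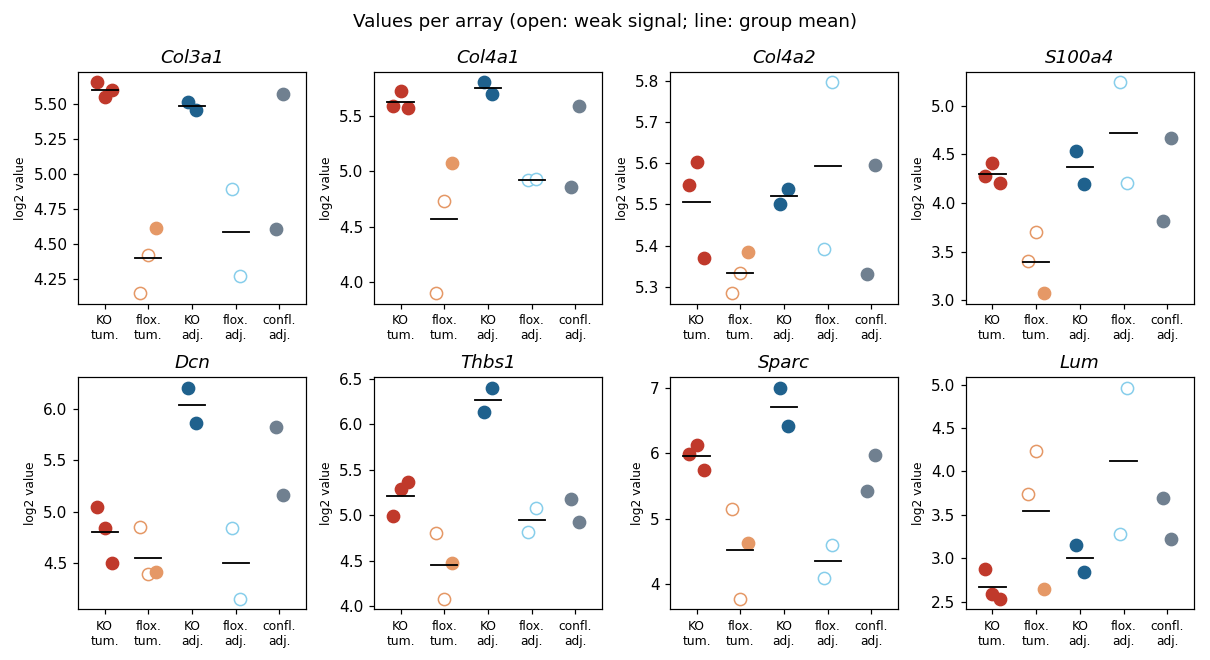
Log2 values of 8 genes by group, 1 point per array (open points are weak-signal arrays, grey points the arrays with conflicting labels) and a line at the group mean; each panel has its own axis. Col3a1 lies at 5.55 to 5.66 in KO tumor and 4.15 to 4.62 in floxed tumor arrays, Col4a2 overlaps between the groups, and Dcn and Thbs1 are highest in the KO adjacent arrays.

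The direction of these differences went with level for all genes. Among genes whose mean over the 12 arrays exceeded the median of all genes, 18 of 24 members were above 0 in KO minus floxed tumor, and 73.0% of all such genes were. Among genes at or below that median 6 of 13 members were above 0, and 26.2% of all genes. The share of members was near that of all genes in the upper class and above it in the lower. Against floxed tumor array 3 alone, the floxed tumor array without weak signal, 19 of 24 members and 53.2% of all genes were above 0 in the upper class, and 12 of 13 members and 49.4% of all genes in the lower. Against floxed tumor arrays 1 and 2 the counts were 19 of 24 and 4 of 13, with 75.5% and 22.5% of all genes.

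Fitted without the weak-signal arrays, the 3 KO tumor arrays against floxed tumor array 3 gave 31 of 37 genes above 0, where 51.3% of all genes were, and a median of 0.34. In that fit the lone floxed array was assumed to vary like the KO arrays, and 11 of the 37 genes were higher and 1 lower, against 9.47% and 9.92% of all genes. Those higher were the fibrillar collagens Col1a1, Col1a2, Col3a1, Col5a1 and Col5a2, the proteoglycan Bgn, the matricellular Sparc and Thbs1, Pdgfra, S100a4 and Dpt. S100a4 and Dpt lay at or under background in all 4 of these arrays. Bgn, Pdgfra and Col5a2 measured 3.98, 4.17 and 3.68 in floxed tumor array 3, under its background of 4.21. Col5a2 lay under background in KO tumor array 3 as well. The size of the differences of these 5 genes is therefore uncertain. Vim was the gene lower in KO, by -0.89 ± 0.17, and lay under background in KO tumor arrays 1 and 3. Col3a1 differed by 0.99 ± 0.16 (adjusted p = 0.0073), Sparc by 1.32 ± 0.25 (adjusted p = 0.0123), S100a4 by 1.23 ± 0.19 (adjusted p = 0.0066) and Pdgfra by 1.05 ± 0.17 (adjusted p = 0.0072). In the same comparison 16 of 16 epithelial markers lay above background in all 4 arrays, with list medians of 6.28, 6.30 and 6.93 in KO tumor arrays and 7.33 in floxed tumor array 3, while fibroblast marker medians were 5.06, 5.01 and 4.74 in KO tumor arrays and 4.48 in that array. The part of the epithelial share of the dissected tissue in these differences was not tested.

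Without floxed tumor array 3, which leaves the 2 weak-signal arrays as the floxed group, 6 genes were higher and 4 lower, against 14% and 15.1% of all genes. The 6 were Col1a2, Col3a1, Col4a1, Col5a1, Col6a2 and Sparc, and the 4 lower were Lum, Mfap5, Postn and Timp3. Col1a2, Col3a1, Col4a1 and Col6a2 lay under background in both floxed arrays, and Col5a1 and Sparc in floxed tumor array 2. Lum, Mfap5 and Timp3 lay at or under background in all 8 arrays of ordinary signal. Postn lay under it in every tumor array of this fit. Leaving out any other tumor array left 0 of the 37 genes past the test, where 0.0502% to 0.386% of all genes were called.

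**Figure D4:**
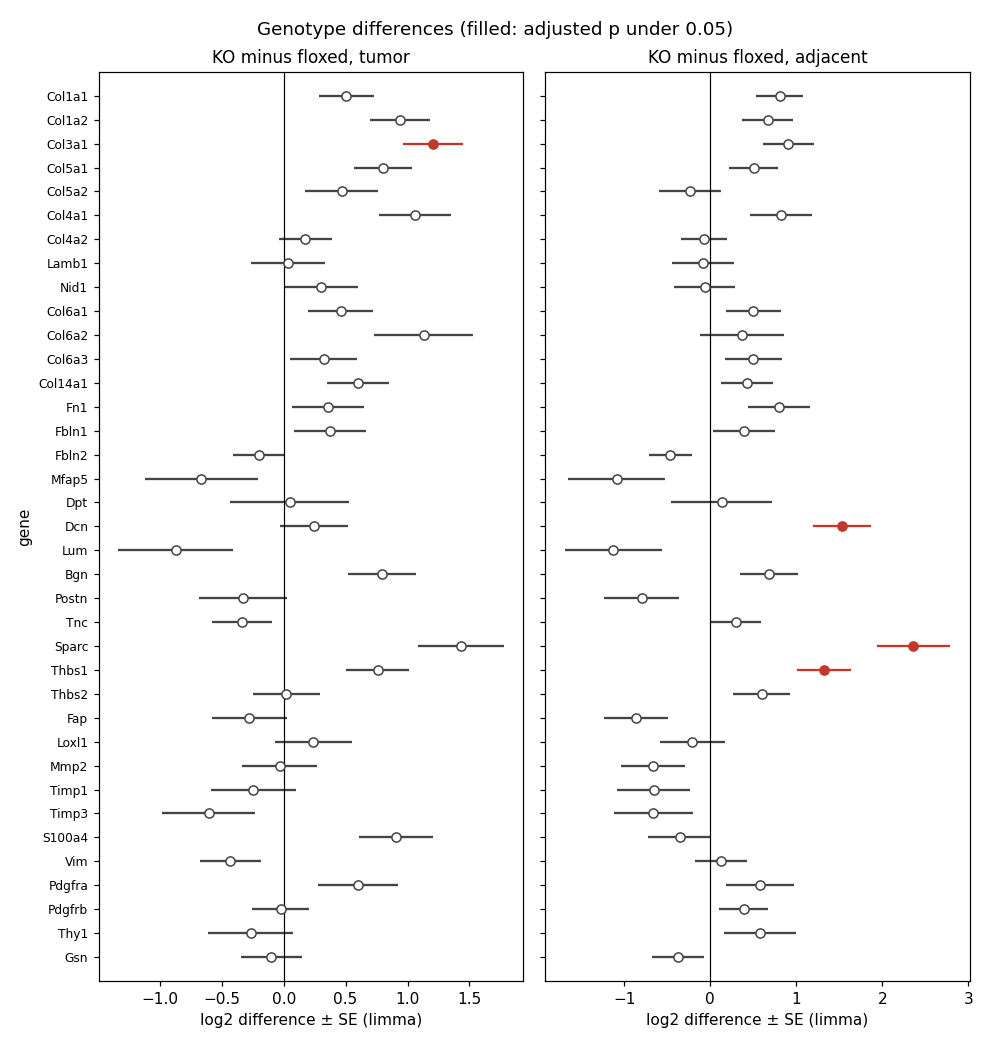
KO minus floxed log2 differences of the 37 genes with limma standard errors, in tumor (left) and adjacent epithelium (right); red filled points passed the test. Col3a1 passed in tumor, and Dcn, Sparc and Thbs1 in adjacent epithelium, where Lum and Mfap5 have the most negative points.

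In KO adjacent epithelium against floxed adjacent epithelium, 3 of the 37 genes were higher and 0 lower, against 2.91% and 3.15% of all genes. Both floxed arrays here were of weak signal. Sparc was higher by 2.36 ± 0.43 (log2, SE, n = 2 and 2, adjusted p = 0.0206), with 7.00 and 6.42 in KO adjacent arrays and 4.09 and 4.60 in floxed adjacent arrays. Dcn, which binds collagen fibrils and restrains TGF-beta, was higher by 1.53 ± 0.34 (adjusted p = 0.0315), with 6.20 and 5.86 in KO adjacent arrays and 4.84 and 4.16 in floxed adjacent arrays. Thbs1 was higher by 1.32 ± 0.31 (adjusted p = 0.0384), with 6.13 and 6.40 in KO adjacent arrays and 4.82 and 5.08 in floxed adjacent arrays. The floxed values of these 3 genes lay under the background of their arrays, 5.15 and 5.20, so the size of the differences is uncertain.

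The median of the 37 genes in this comparison was 0.37, with 22 above 0, against -0.04 and 47.6% of all genes. Groups did not overlap in 18 genes higher and 9 lower in KO, where 32.1% and 35% of all genes did not overlap in these directions. Of the members above the median level, 19 of 24 were above 0, with 73.9% of all such genes, and of those at or below it 3 of 13, with 21.4% of all genes. Leaving out any 1 of these 4 arrays left a single array on a side, so such fits cannot show whether the calls hold. Over the alternatives tried, Sparc differed by 1.39 to 2.65, Dcn by 0.80 to 1.87 and Thbs1 by 0.80 to 1.45. When the conflict arrays were read by title or by genotype entry, 0 of the 37 genes were called in both (limma). There 3 and 12 had an unadjusted p below 0.05, and Sparc differed by 1.39 and 1.76. Of all genes, 0.00502% and 0.241% were called in these readings, against 6.06% in the main fit.

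No collagen passed in adjacent epithelium. Col3a1 measured 5.51 and 5.46 in KO adjacent and 4.90 and 4.27 in floxed adjacent arrays (difference 0.90 ± 0.30, adjusted p = 0.0837). Col1a1 measured 6.05 and 6.17 in KO adjacent and 5.17 and 5.44 in floxed adjacent arrays (difference 0.81, adjusted p = 0.0892). Col4a1 measured 5.80 and 5.69 in KO adjacent and 4.92 and 4.93 in floxed adjacent arrays, while Col4a2 measured 5.50 and 5.54 in KO adjacent and 5.39 and 5.80 in floxed adjacent arrays. As in tumor, Col4a1 groups stood apart and Col4a2 groups overlapped. Both floxed adjacent values of Col3a1 and of Col4a1 lay under the background of their arrays, 5.15 and 5.20, so the size of their differences is uncertain. The contrast between Col4a1 and Col4a2 was not tested. All 5 enzymes and inhibitors had negative differences, none past the test. Fap, Timp1 and Timp3 lay under background in every array, and Loxl1 in KO adjacent array 1 and both floxed adjacent arrays. These genes had means below the median of all genes, where 21.4% of all genes were above 0 in this comparison. Their differences are therefore uncertain. Mmp2 lay above background in these adjacent arrays.

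S100a4 had a difference of the other sign than in tumor. It measured 4.54 and 4.20 in KO adjacent and 5.24 and 4.20 in floxed adjacent arrays, a difference of -0.35 ± 0.37 (adjusted p = 0.544). Vim measured 4.54 and 4.61 in KO adjacent and 4.38 and 4.53 in floxed adjacent arrays, a difference of 0.12 ± 0.30 (adjusted p = 0.818). Both floxed adjacent values of Vim lay under the background of their arrays. Fap, Lum and Mfap5, at or under background in these arrays, had the smallest p among those with negative differences and did not pass. Fap measured 3.08 and 2.91 in KO adjacent and 3.41 and 4.30 in floxed adjacent arrays, and Lum measured 3.15 and 2.85 in KO adjacent and 3.28 and 4.97 in floxed adjacent arrays. Mfap5 measured 3.22 and 3.84 in KO adjacent and 4.95 and 4.29 in floxed adjacent arrays. In each of them the floxed arrays lay above the KO arrays.

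Within the KO label none of the arrays had weak signal, and 3 tumor arrays were set against 2 adjacent arrays. With the spread shared with the floxed arrays, the count of called genes was 0 of 37 (limma; 2 had an unadjusted p below 0.05); over all genes 0% were higher and 0.0201% lower. Fitted on the 5 KO arrays alone, 2 of the 37 were lower in tumor and 0 higher, against 1.29% and 0.557% of all genes. Dcn was lower by -1.23 ± 0.19 (log2, SE, adjusted p = 0.0256), with 5.04, 4.85 and 4.51 in KO tumor arrays and 6.20 and 5.86 in KO adjacent arrays. Thbs1 was lower by -1.05 ± 0.17 (adjusted p = 0.0276), with 4.99, 5.29 and 5.37 in KO tumor arrays and 6.13 and 6.40 in KO adjacent arrays. For both genes the tissues stood apart by more than the spread within them. In the fit that shared the spread their adjusted p were 0.692 and 0.893.

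Sparc measured 5.99, 6.12 and 5.74 in KO tumor and 7.00 and 6.42 in KO adjacent arrays, a difference of -0.76 ± 0.20 on the 5 KO arrays that did not pass (adjusted p = 0.122). Fn1, Tnc, which encodes the anti-adhesive matrix protein tenascin C, and Bgn differed by -0.54, -0.49 and -0.43, none past the test. By sign alone, all 5 matricellular genes and all 3 proteoglycans lay below 0, as did 22 of the 37 genes. Of all genes, 57.3% lay above 0. Lum, a proteoglycan gene, and Postn, a matricellular gene, lay under background in all 5 KO arrays. Tnc lay under it in all 3 KO tumor arrays and Thbs2 in KO tumor arrays 1 and 3. Roles were not tested against each other. Of the collagens, Col3a1 differed by 0.12 ± 0.27, Col1a1 by -0.22 ± 0.25, Col4a1 by -0.12 and all 4 genes of collagens VI and XIV by 0.02 to 0.23 in the fit that shared the spread. S100a4 and Vim differed by -0.07 ± 0.33 and -0.22 ± 0.28. Among genes above 0, Fbln1, Col6a1 and Col3a1 had no overlap between the tissues, at 0.31, 0.22 and 0.12. In all, 3 genes lay higher and 12 lower without overlap, against 17.9% and 14.1% of all genes, and the median of the 37 genes was -0.09 against 0.04 over all genes.

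**Figure D5:**
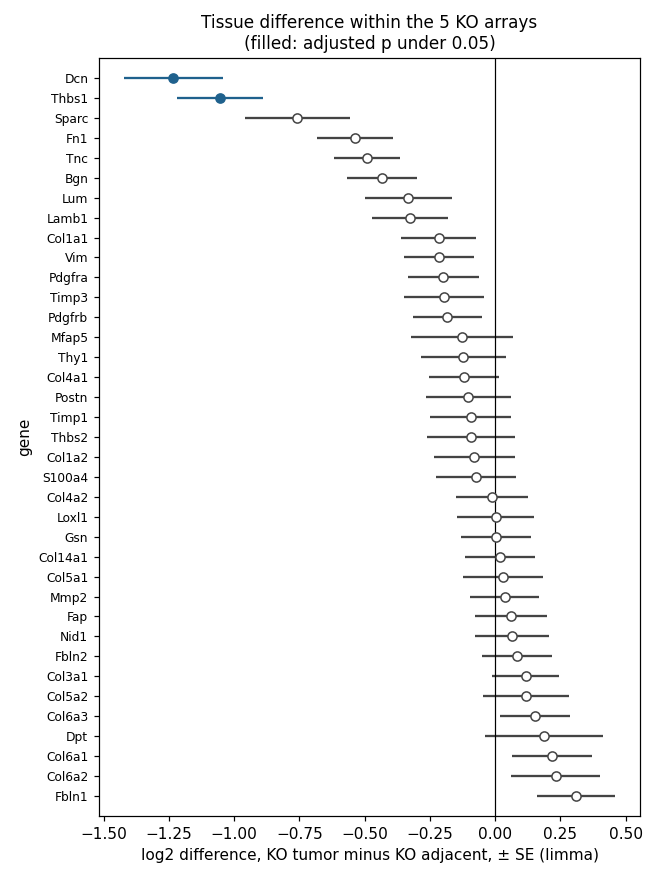
Tumor minus adjacent log2 difference of the 37 genes within the KO label, with limma standard errors, fitted on the 5 KO arrays alone. Dcn and Thbs1 (filled) passed at -1.23 and -1.05, and most collagens lie near 0.

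Within the floxed label 0 of the 37 were called (limma; 1 had an unadjusted p below 0.05), and over all genes 0.00502% were higher and 0% lower. S100a4 measured 3.40, 3.70 and 3.07 in floxed tumor arrays and 5.24 and 4.20 in floxed adjacent arrays, a difference of -1.33 ± 0.33 (adjusted p = 0.227). Mmp2 and Col5a2 differed by -0.60 and -0.59, and Thy1, Thbs2 and Vim by 0.72, 0.48 and 0.34. Col1a1 and Col3a1 differed by 0.08 ± 0.25 and -0.19 ± 0.27. Groups did not overlap in 1 gene higher, Vim, and 4 lower, against 8.64% and 10.1% of all genes. Both adjacent arrays and 2 of the 3 tumor arrays were of weak signal.

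The interaction term compared the genotype difference between the tissues, and it called 0 of the 37 (limma; 2 had an unadjusted p below 0.05; 0% of all genes in either direction). Dcn differed by -1.29 ± 0.43 between the tissues (adjusted p = 0.707) and S100a4 by 1.26 ± 0.47 (adjusted p = 0.716). Next by unadjusted p were Sparc and Tnc on the negative side at -0.93 and -0.63, and Col5a2 and Mmp2 on the positive side at 0.70 and 0.64. Col1a1, Col3a1 and Vim stood at -0.30, 0.30 and -0.56. The calls of Dcn, Sparc and Thbs1 in adjacent and of Col3a1 in tumor epithelium are therefore not shown to differ between the tissues.

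Over all 12 arrays, tumor against adjacent epithelium called 0 of the 37 (limma; 1 had an unadjusted p below 0.05; 0% of all genes). In this comparison 29 of 37 genes were below 0 with a median of -0.13, against a median of 0.00 over all genes, and 0 of the 37 had groups that did not overlap, against 0.0652% and 0.13% of all genes. Dcn differed by -0.67 ± 0.31 and S100a4 by -0.60 ± 0.28, each with an adjusted p of 0.9999, and Thbs1 by -0.59. Fbln1, Col6a3 and Thbs2 stood highest among genes above 0 by their unadjusted p, at 0.30, 0.22 and 0.17. Col1a1, Col3a1 and Vim differed by -0.07, -0.05 and -0.08.

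The conflict arrays held unlike values of collagens. Col3a1 measured 4.61 in conflict array 1 and 5.58 in conflict array 2, Col4a1 measured 4.86 and 5.59, and Col1a1 measured 5.30 and 6.15. Conflict array 1 held 5.82 for Dcn, 5.14 for Vim and 6.37 for Gsn, the highest Gsn value of the 12 arrays, and conflict array 2 held 5.16, 4.74 and 5.12. No genotype is assigned to either array.

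A list of 70 further matrix and fibroblast genes, 66 of them measured, was read beside these. In KO against floxed tumor epithelium 0 passed (limma), with a median of 0.04 and 38 above 0. In adjacent epithelium 1 was lower and 0 higher, with a median of 0.00: Mgp, the matrix Gla protein that inhibits calcification, measured 4.11 and 4.11 in KO adjacent and 5.69 and 5.28 in floxed adjacent arrays (difference -1.38 ± 0.33, adjusted p = 0.0400). That is 1 of 66, where 3.15% of all genes were lower, and both KO values lay under the background of their arrays, 4.23 and 4.30, so the size of the difference is uncertain. Within the KO label 0 passed and the median was 0.08. This list reached 32 to 46 of its 66 genes above background in arrays of ordinary signal, against 23 to 29 of the 37. In the same arrays 52.9% to 58.3% of all genes lay above background.

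Markers of other cell types were read beside these genes. In KO against floxed tumor epithelium the medians of 16 epithelial, 12 smooth muscle, 12 endothelial, 12 macrophage, 7 T cell, 7 B and plasma cell and 8 glia and neuron markers were 0.47, -0.04, 0.24, -0.16, -0.01, 0.13 and 0.19, with 0 genes of each past the test. In adjacent epithelium they were 1.76, -0.01, 0.25, -0.21, -0.45, -0.22 and 0.09, also with 0 past the test. Within the KO label, tumor minus adjacent, they were -0.07, 0.03, 0.03, 0.03, 0.23, 0.04 and 0.13. A list of 12 fibroblast markers, all of them members, had medians of 0.37, 0.58 and -0.19 in these comparisons. In arrays of ordinary signal 8 to 11 of 12 smooth muscle, 6 to 9 of 12 endothelial and 5 to 9 of 12 macrophage markers lay above background. There 1 to 4 of 7 T cell, 2 to 6 of 7 B and plasma cell and 3 to 6 of 8 glia and neuron markers did. Of all genes, 52.9% to 58.3% lay above background in these arrays. In the weak-signal arrays 1 to 2 smooth muscle, 0 endothelial and 0 to 5 macrophage markers did. The T cell, B and plasma cell and glia and neuron lists had 0 to 1, 0 to 3 and 0 to 2 there, with 10.2% to 18.8% of all genes. The part of these cell types in the differences of the 37 genes was not tested.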

How the data were processed

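Laser-cut epithelium gave 12 arrays, labelled with a GeneChip WT Pico kit and biotin per the labels' protocols. The deposited table held log2 expression values, 1 column per array; per the submitters' processing notes the authors used Partek, and summarised probes by RMA; neither has a version there. Other filters and normalization are not given in the sources used here. Columns did not share one distribution, since the SD within an array was 1.04 to 1.57.

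Of 35556 probe sets, 21789 had 1 gene symbol in the platform annotation, 1621 had several and 12146 had no name here. RefSeq held the Entrez number of 21698, which altered 0 symbols. The probe set with the highest mean stood for its gene, for 19938 genes. limma 3.58.1 (R 4.3.3; lmFit and eBayes, two-sided) fitted 4 groups on the 10 arrays with agreeing labels, with Benjamini-Hochberg adjustment over all genes and calls below 0.05. All 12 arrays entered a separate comparison of the tissues. So few arrays limit the precision of every value. The steps were tested on simulated data before use.

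The genes, the related list and the marker lists for fibroblasts, epithelium, smooth muscle, endothelium, macrophages, T cells, B and plasma cells, and glia and neurons were chosen with earlier results of these data known. Named genes followed a rule: those past the test, otherwise the 3 of smallest unadjusted p per direction, with S100a4, Vim, Col1a1 and Col3a1 in each comparison; other genes are given by role. Same-numbered KO and floxed tumor arrays deviated together from their group means, by title number, with correlations of 0.105, 0.121 and 0.347 across genes, all above the limit of 0.1, so the number was read as pairing them and the blocked result stands beside the tumor comparison. No label states what a number shares, and floxed tumor array 2 correlated better with KO tumor array 1 (0.246). Numbers of other groups gave -0.129 to 0.062. Promoter windows came from RefSeq on GRCm38.p6, and motifs were searched by script in the 250 bases before each start. As alternatives the arrays were rescaled, the 30% dimmest genes dropped, probe sets averaged, and the variance model, array weights, arrays in the fit, replicate block, reading of the conflicting labels, weak-signal arrays, single arrays and threshold (0.1) varied.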

Additional observations from a re-analysis of the deposited data

Results flagged for a closer look

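A test for a single outlying value was run only on the genes named in the comparison of the tissues over all 12 arrays. It was run within the 6 tumor and the 6 adjacent arrays, and it flags about 1 group in 20 by chance. Of the genes tested, 2 had 1 tumor array far from the others. The remaining members were not tested in this way. Vim stood at 5.25 in floxed tumor array 3, against 4.29 to 4.49 in the KO tumor arrays and 4.54 and 4.59 in the other floxed tumor arrays. Fbln1, a fibulin, stood at 4.71 in floxed tumor array 2, a weak-signal array, against 5.52 to 5.85 in the KO tumor arrays and 5.82 and 5.56 in the other floxed tumor arrays.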

How the results depend on the processing

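Counts below are members called, of 37, with the share of all genes called in the same fit in brackets. In KO against floxed tumor epithelium the count of 1 (1.08%) became 4 at an adjusted p under 0.1 (5.92%), 5 with array weights (14.6%; Col1a2, Col3a1, Col4a1, Col6a2, Sparc), 12 without weak-signal arrays (19.4%) and 0 after quantile normalizing again, centring arrays on their medians, leaving out the dimmest genes, trend and robust variance, fitting only the arrays compared, the replicate block (an alternative that paired arrays by number) or reading conflicting labels by title; with 1 array left out it ran from 0 to 10, with 10 without floxed tumor array 3 (29.1%). In adjacent epithelium the count of 3 (6.06%) became 5 at an adjusted p under 0.1 (16.8%) and 0 after quantile normalizing (0.642%). It was 0 with the conflicting labels read by title (0.00502%) or by genotype entry (0.241%). With the replicate block it was 6 (28.4%), 4 higher and 2 lower. Fits with 1 adjacent array left out keep a single array on a side and are not counted here. In tumor against adjacent within KO the count of 0 (0.0201%) became 4 with array weights (5.23%), with Dcn, Thbs1, Sparc and Tnc all lower. It became 2 with only the arrays compared or no weak-signal arrays (1.85% each) or the replicate block (4.59%). Over all arrays the count of 0 (0%) became 1 with array weights (0.637%). The other comparisons kept 0, within floxed at 0% to 1.72% of all genes and in the interaction at 0% to 0.00502%. Over the alternatives, 15 of the 37 genes took both signs in KO against floxed tumor, 11 in adjacent epithelium, 19 in tumor against adjacent within KO, 16 within floxed, 19 in the interaction and 18 over all arrays. For the genes named by rule, 52 differences in all, direction turned in 28 of 868 values recomputed, all for differences that did not pass. Without weak-signal arrays it turned for Lum (0.019) and Timp3 (0.24) in tumor and for Thbs2 (-0.011) and Col3a1 (0.068) over all arrays; with array weights, for Thbs2 (-0.013) and Col3a1 (0.091) over all arrays. Read by genotype entry, it turned for S100a4 (0.047) and Vim (-0.054) in adjacent epithelium; read by title, for S100a4 (0.11) and Col1a1 (0.055) within KO, Col1a1 (-0.20) within floxed, and Sparc (0.042) and Col1a1 (0.25) in the interaction. With 1 array left out, S100a4 ran from -0.87 to 0.16 in adjacent epithelium and -0.24 to 0.097 within KO. Within floxed, Col1a1 ran from -0.051 to 0.22 and Col3a1 from -0.50 to 0.13, and Col3a1 ran from -0.0077 to 0.62 in the interaction. Over all arrays, Vim ran from -0.21 to 0.018, Col1a1 from -0.18 to 0.026 and Col3a1 from -0.21 to 0.12. The cause of these moves was not tested. Leaving out weak-signal arrays was not run for adjacent epithelium, within floxed or for the interaction, as no floxed adjacent array is left.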
